A study of Sus scrofa with 92 samples.

Results

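The genes described here carry pig symbols that begin with CENP, MCM, CDC, BUB, AURK, CCNA, CCNB, CCNE, CDK or KIF, with KIF5A left out. This rule uses the symbol and no measured value, and the members numbered 132 of 25322 gene IDs, of which 11804 had a symbol. A symbol prefix is not a function, so the members were sorted by known role. Of the 132, 48 with listed roles in DNA replication or mitosis are called the core members here. They comprise 7 replication genes, 10 cyclins, kinases and phosphatases of S and M phase, and 6 genes of the spindle checkpoint and of chromatid cohesion. The rest are 13 centromere genes and 12 mitotic kinesins. The centromere role took in all 13 CENP symbols, also CENPJ, which is known from the centriole. The other 84 include 26 transport and other kinesins, 17 CDK5 partners and less studied CDKs, 8 genes of the CDC42 GTPase pathway and 5 kinases of transcription. Also outside the core are 4 genes of the anaphase promoting complex and of mitotic exit. These 4 act in division too, so the core is not every division gene of the set.

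A cell that divides copies its DNA once, after the MCM helicase is loaded on origins, and then enters mitosis when the kinase CDK1 binds cyclin B. Centromere proteins build the kinetochore, kinesins arrange the spindle, and the BUB checkpoint holds chromosomes back until all are attached. Transcripts of many of these genes accumulate in cycling cells and are scarce in most resting ones, which is why they are read as a measure of division. In bulk tissue, fewer dividing cells and less of the RNA in each dividing cell cannot be told apart. RNA held by cells that are not dividing, such as oocytes in ovary, cannot be separated either.

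RNA was sequenced from pigs at 60 days of age, in 83 libraries of single tissues and in 9 mixtures of tissues whose makeup is not given. There were 10 libraries each of spleen, psoas major and longissimus dorsi, 9 each of ovary, heart, liver, kidney and subcutaneous adipose, and 8 of lung. The Chinese pigs were Bamei, Jinhua, Meishan, Rongchang (no lung) and Tibetan wild boar (spleen and both muscles), and the Western pigs were Berkshire, Hampshire, Landrace, Large White and Piétrain. Each breed gave 1 library per tissue, so breeds are the replicates, and p-values measure only the spread between these libraries. Whether tissues of a breed share an animal, or animals were pooled, is not stated.

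Levels are FPKM, fragments per length of gene and size of library, scaled between libraries by median ratios. Total FPKM ran from 519075 to 2196138 per library, and 10175 to 14561 genes reached 1 FPKM. Counts were not analysed here and absolute depth is unknown. Relative depth between libraries, estimated from the spacing of low values, spanned 0.714 to 1.43. Tissue labels were checked with marker genes fixed by list. Oocyte genes summed to 271 to 1236 scaled FPKM in ovary and to at most 39.0 in any library of another tissue. The B and T cell genes summed to 349.8 to 524.5 in spleen, with a highest sum elsewhere of 164, in lung. The ovary of Meishan stood apart, with the lowest oocyte sum, 271, and the highest sum of ciliated cell genes, 122 against 8.6 in the lowest ovary.

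CDK1 (ENSSSCG00000010214), the kinase that starts mitosis, was measured in all 83 tissue libraries. In spleen it averaged 16.6 ± 5.04 scaled FPKM (SD, n = 10), with a lowest value of 11.9, a median of 15.1 and a highest of 25.8. In ovary it averaged 17.3 ± 3.81 (n = 9), from 10.21 over 17.4 to 24.1. These libraries formed a compact band in which the highest was 2.17 times the lowest in spleen and 2.36 times in ovary. In heart CDK1 averaged 14.8 ± 11.5 (n = 9), from 2.23 in Hampshire over a median of 13.1 to 33.4 in Berkshire. Heart therefore held both the highest CDK1 library of all and libraries at the level of muscle. Lung averaged 7.85 ± 3.65 (n = 8), from 3.53 over 6.45 to 15.2, and liver averaged 6.52 ± 4.63 (n = 9), from 1.57 over 6.29 to 12.4. Kidney averaged 4.80 ± 3.11 (n = 9), from 1.498 over 4.89 to 11.4. The lowest group was made of psoas major, longissimus dorsi and adipose, which overlapped over most of their range. Psoas major averaged 3.79 ± 3.12 (n = 10, 0.598 over 3.19 to 9.27) and longissimus dorsi 4.19 ± 4.07 (n = 10, 0.532 over 2.69 to 12.4). Adipose averaged 3.06 ± 2.23 (n = 9, 0.458 over 2.86 to 6.47).

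**Figure D1:**
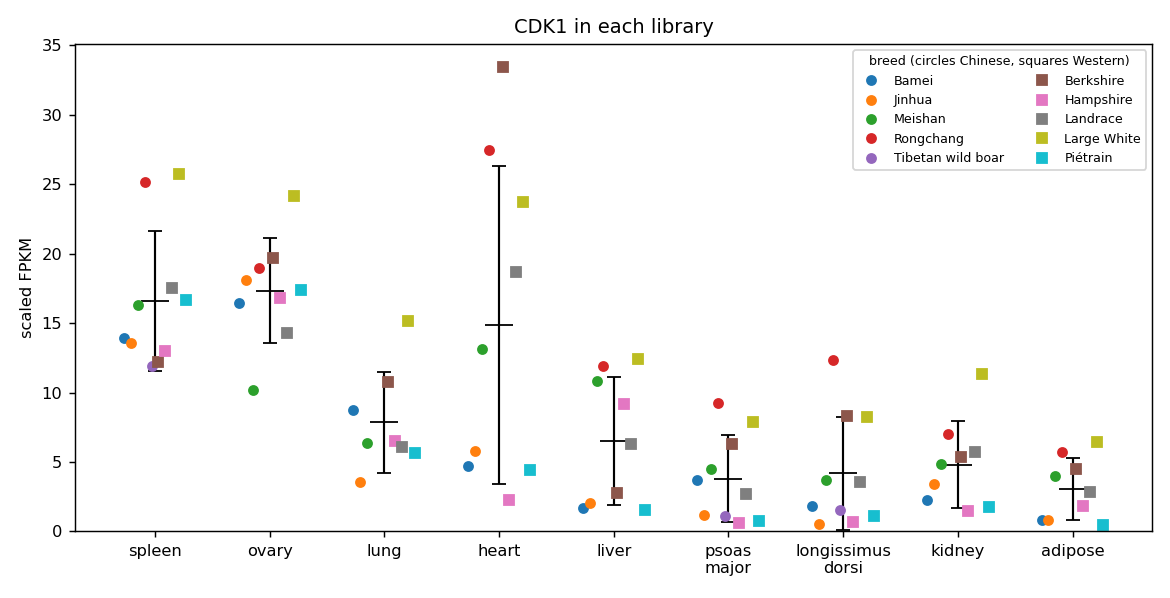
CDK1 level in each tissue library, as scaled FPKM on a linear axis; each point is 1 breed, the dash is the mean and the bar the SD over breeds. Spleen and ovary sit between 10.21 and 25.8, and heart spreads from 2.23 to 33.4.

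Neighbours in this order mostly did not differ beyond their spread. All of these are log2 differences from limma, a linear model across all genes with breed as block, with Benjamini-Hochberg adjustment over 16909 genes. Spleen against ovary differed by -0.0047 (SE 0.256, adjusted p = 0.991313), and heart against lung by 0.40 (adjusted p = 0.1871). Heart lay below spleen by a log2 difference of -0.59 (adjusted p = 0.0339846). Liver against lung differed by -0.56 (adjusted p = 0.0566366), liver against kidney by 0.25 (adjusted p = 0.406644) and kidney against skeletal muscle by 0.31 (adjusted p = 0.211636). A p above 0.05 leaves the order of such a pair undecided.

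Over the core members as a group, spleen and ovary held the highest levels. The mean of log2(scaled FPKM + 1) over the 48 was 2.62 ± 0.22 in spleen (SD, n = 10; 2.38 to 2.99) and 2.64 ± 0.16 in ovary (n = 9; 2.33 to 2.91). Lung followed at 2.0 ± 0.28 (n = 8; 1.66 to 2.47), heart at 1.85 ± 0.49 (n = 9; 1.17 to 2.45) and liver at 1.58 ± 0.39 (n = 9; 1.09 to 1.99). Psoas major at 1.43 ± 0.37 (n = 10), longissimus dorsi at 1.45 ± 0.42 (n = 10), kidney at 1.44 ± 0.30 (n = 9) and adipose at 1.42 ± 0.37 (n = 9) shared 1 range. Between 47 and 48 core members reached 1 scaled FPKM in each spleen and 44 to 47 in each ovary. On FPKM as deposited, 48 reached 1 in each spleen and 47 to 48 in each ovary. In longissimus dorsi the scaled count ran from 15 to 45, and that as deposited from 12 to 40. The same muscle thus held most of the set in one breed and a small share of it in another.

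**Figure D2:**
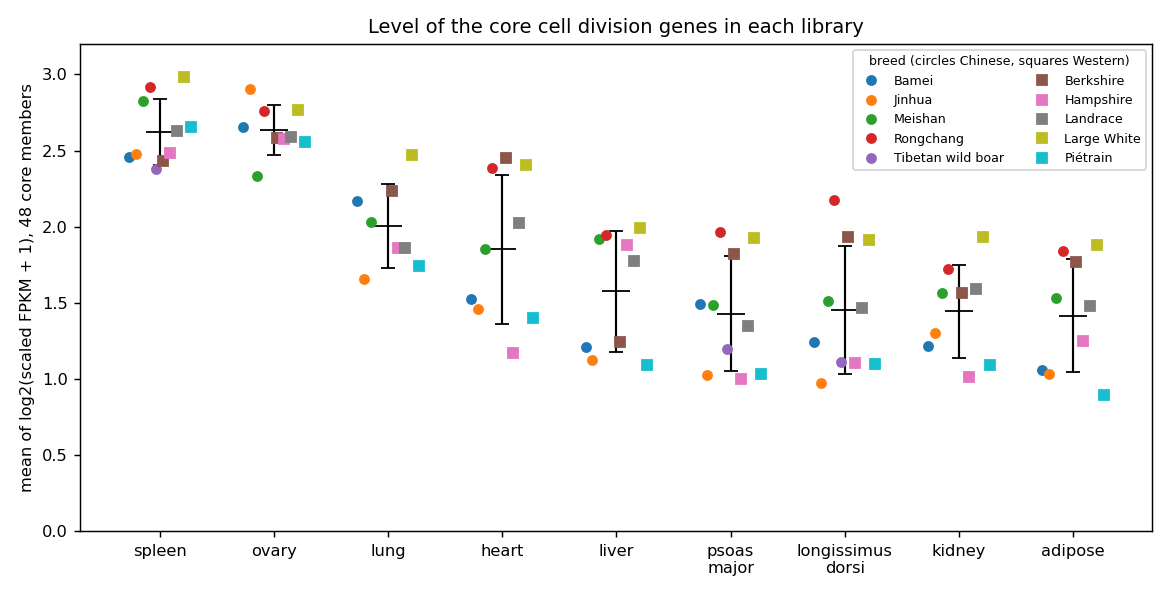
Mean level of the 48 core members in each library, as log2(scaled FPKM + 1); points are breeds, the dash is the mean and the bar the SD. Every spleen and ovary library lies at 2.33 or above, and the same breeds, Large White and Rongchang, lie near the top in most tissues.

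Each tissue class was then set against the mean of the other 7, with both skeletal muscles averaged as 1 class. A member was called at an adjusted p below 0.05 (limma) and a log2 difference over 1. Of the 132 members, 128 passed the filter on low values, the 48 core members among them. CDKN1A, an inhibitor of CDKs, is listed at 0 in all 83 libraries, and KIF2B, CDCP2 and CDKL3 stayed below the filter. In spleen 20 of 48 core members were called higher (41.7%), where 9.67% of all genes tested were. In ovary 17 of 48 were called higher (35.4%), where 14.7% of all genes were. No core member was called higher in heart, liver, lung, kidney, muscle or adipose, where 8.72, 12.7, 9.79, 10.6, 10.6 and 7.26% of all genes were called higher. The median core difference was 0.92 in spleen and 0.68 in ovary, beside -0.15 and -0.03 (-0.035) over all genes. In kidney and in adipose all 48 core members lay below the mean of the other classes, with medians of -0.52 (-0.515) and -0.56, beside -0.09 (-0.095) and -0.14 over all genes, though few passed the fold of the call. Of all 16909 genes, 9677 lay below the mean of the other classes in kidney and 10457 in adipose.

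Scaling set how many members were called. Without it, on FPKM as deposited, the median of all genes itself moved, to 0.50 in ovary, 0.31 in lung, -0.39 in heart, -0.53 in liver and -0.65 in muscle. Relative to all genes, the core median was 1.07 above in spleen with median ratios, 1.11 as deposited and 0.99 after quantile normalization, and in ovary 0.71 (0.715), 0.75 and 0.69. Core calls summed over tissues numbered 37 higher and 11 lower (77.1% higher), against 64 and 36 as deposited (64% higher) and 38 and 8 after quantile normalization (82.6% higher). The core median of heart was -0.09 (-0.086) and turned to 0.07 (0.066) after quantile normalization.

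**Figure D3:**
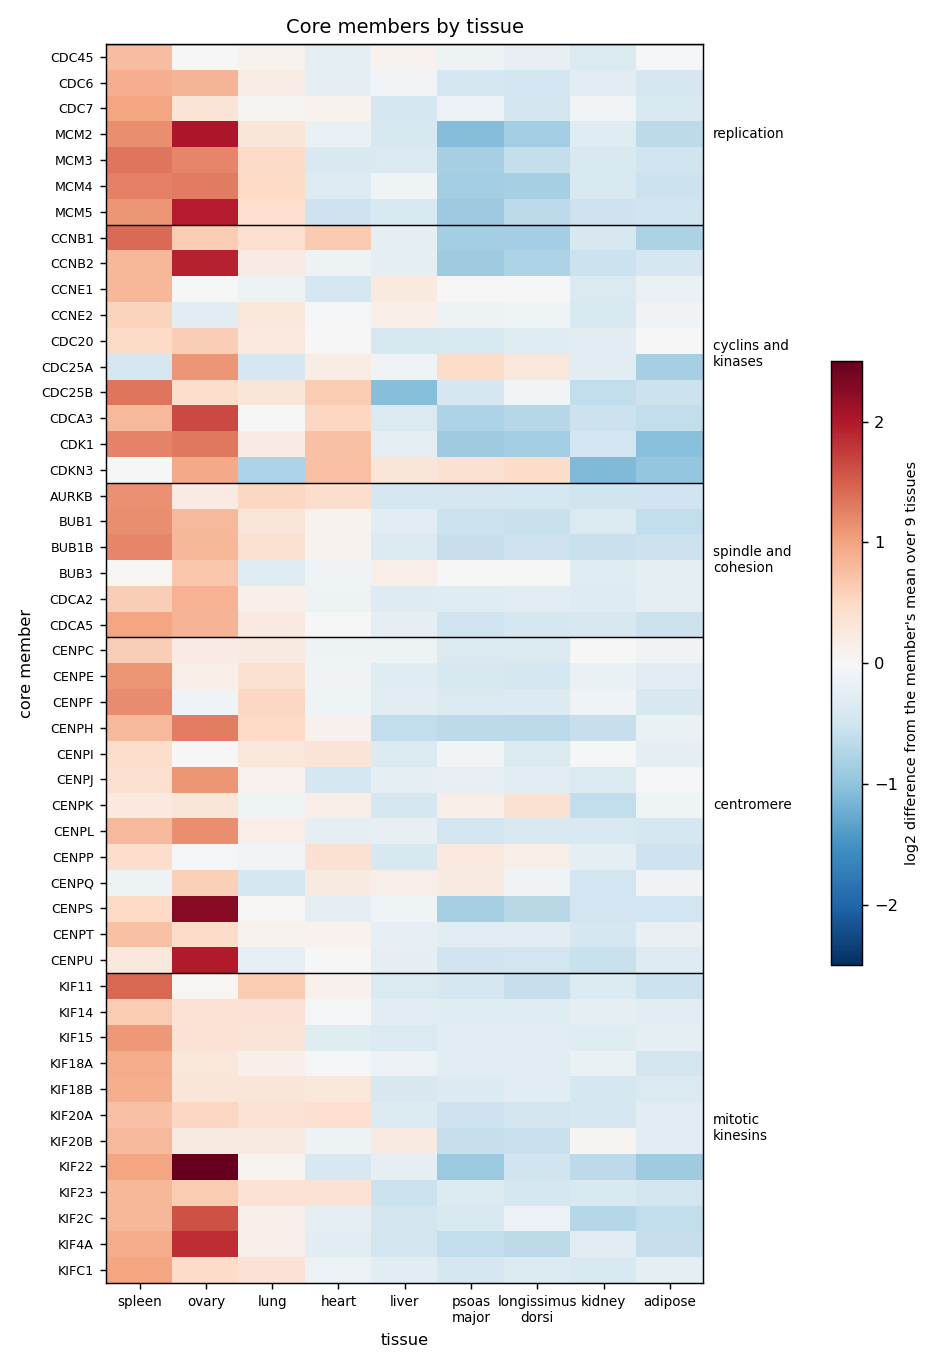
The 48 core members, grouped by role, in 9 tissues; colour gives the log2 difference of a tissue from the member's own mean over tissues, red higher and blue lower. Spleen and ovary are red over most rows, and ovary holds the deepest red, at KIF22 and CENPS.

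In spleen, the organ that filters blood and houses lymphocytes, calls came from each of the 5 core roles. Of the 7 replication genes 5 were called, among them MCM3 by 1.46, MCM4 by 1.34, MCM2 by 1.21 and MCM5 by 1.18, which are subunits of the helicase, and CDC7 by 1.11, the kinase that activates it. Of the 12 mitotic kinesins 6 were called, led by KIF11, the motor that pushes spindle poles apart, with 1.62 (SE 0.12, adjusted p = 1.3084e-20). Its level was 9.21 ± 3.10 scaled FPKM in spleen (5.89 over 8.39 to 14.9). CCNB1, the cyclin partner of CDK1, was higher by 1.52, CDC25B, a phosphatase that activates CDK1, by 1.49, and CDK1 itself by 1.35 (SE 0.19, adjusted p = 2.16917e-09). The checkpoint kinases BUB1B and BUB1 were higher by 1.37 and 1.25, and AURKB, the kinase that corrects attachments to the spindle, by 1.21. Among 13 centromere genes CENPF (1.34) and CENPE (1.24), large proteins of the outer kinetochore, were called. In the same libraries 10 of 11 tested B and T cell genes were called higher, such as MS4A1, the B cell surface protein CD20, by 5.71. Of 6 tested red cell precursor genes 4 were called higher in spleen, such as ALAS2, an enzyme of haem synthesis, by 2.29 (2.285). The list's summed level in spleen, 19.7 to 125 scaled FPKM with a median of 49.4, lay below the medians of heart (104), liver (108) and psoas major (112). The part of either cell type in the core level was not tested. KIF22 (1.06) and KIF18B lost their calls without Piétrain.

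In ovary the called core members were partly other genes. KIF22, a kinesin that moves chromosome arms, averaged 39.7 ± 15.9 scaled FPKM in ovary (n = 9; 11.4 over 38.9 to 65.6), and its log2 difference from the other classes was 2.78 (SE 0.16, adjusted p = 1.93989e-26). CENPS, a centromere protein that also works in DNA repair, averaged 26.5 ± 5.58 (20.6 over 26.1 to 39.8) with a difference of 2.48 (SE 0.14, adjusted p = 1.3874e-25). CENPU, a partner of the Polo kinase at the inner kinetochore, averaged 11.8 ± 4.6 (4.38 over 12.5 to 20.6), with 2.18. Every ovary lay above every lung for CENPS and KIF22, whose lungs reached 7.02 and 10.03 scaled FPKM. Spleens reached 12.75 for CENPS, below every ovary, and 16.59 for KIF22, above the lowest ovary. The helicase genes MCM2 (2.14), MCM5 (2.11), MCM4 (1.33) and MCM3 (1.28) were called, as were CCNB2 (2.05), the second mitotic cyclin B, KIF4A (2.0), a chromatin kinesin, KIF2C (1.77), which takes microtubules apart, CDCA3 (1.77), which promotes entry into mitosis, and CDK1 (1.35). None of the 6 spindle checkpoint and cohesion genes passed, with a median difference of 0.84. CDKN3, a phosphatase of CDK1 and its kin, was called by 1.14, but not without Jinhua.

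The 17 core members called in ovary shared their lowest ovary, and most shared their highest. All 17 were lowest in the Meishan ovary and 12 of 17 were highest in the Jinhua ovary. Over all 48 core members, 26 were lowest in Meishan and 22 highest in Jinhua. The 17 were called on these same ovary values. How often these 2 ovaries were lowest or highest over all genes was not determined, so these counts have no background. For KIF22 the Meishan ovary read 11.4 scaled FPKM, the Jinhua ovary 65.6 and the Rongchang ovary 57.0, and the other 6 lay between. Oocyte genes summed to 271 in the Meishan ovary and 1236 in the Jinhua ovary, the lowest and highest of the 9. Granulosa genes summed to 60.7 in the Meishan ovary, the lowest, but to 209 in the Jinhua ovary. That is below the ovary median of 227.6, and the highest ovary had 364.7. The part of either list in the level of these members was not tested. Without Meishan 18 core members were called in ovary.

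Only ovary had core members above each other class singly by a log2 of over 1, at an adjusted p below 0.05 in all 7 contrasts. They were KIF22, CENPS, CENPU and CCNB2. With CDK5R1, KIF3A and KIF24 from the other roles, 7 members were highest in ovary, 5.47% of 128 where 5.58% of all genes were, so as a share the members match the background. No member was lowest in any class, where of all genes 0.81% were lowest in liver, 0.585% in spleen, 0.473% in ovary, 0.142% in muscle, 0.0946% in kidney, 0.071% in heart, 0.0177% in adipose and 0.0118% in lung.

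Spleen and ovary were compared directly, since both led the order. Of 48 core members 2 were called higher in spleen, where 13.2% of all genes were, and 5 were lower, where 20.2% of all genes were. KIF11 read 9.21 ± 3.10 scaled FPKM in spleen (n = 10) and 2.79 ± 0.478 in ovary (n = 9), a log2 difference of 1.44, and no spleen overlapped an ovary. CENPF read 4.23 ± 1.44 in spleen and 1.06 ± 0.231 in ovary, a difference of 1.35, again without overlap. Lower in spleen was CDC25A, the phosphatase that frees CDK2 and CDK1 early in the cycle, at 2.09 ± 0.247 against 8.05 ± 2.03 in ovary, a log2 difference of -1.51. CENPS (7.13 ± 2.46 in spleen, 26.5 ± 5.58 in ovary, -1.71), CENPU (-1.68), KIF22 (12.0 ± 2.73 in spleen, 39.7 ± 15.9 in ovary, -1.50) and CCNB2 (5.99 ± 1.46 in spleen, 13.9 ± 3.18 in ovary, -1.05) were also lower. By role, the median log2 difference of spleen minus ovary was 0.42 for mitotic kinesins and 0.27 for the spindle checkpoint, and near 0 for replication (0.07), centromere (-0.01) and cyclins and kinases (-0.06). Both shares of called core members lay below those of all genes. Spleens and ovaries overlapped for KIF22 (spleen up to 16.59, ovary from 11.37) and CCNB2 (up to 8.73, from 7.92). For CENPS, CENPU and CDC25A they did not overlap.

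**Figure D4:**
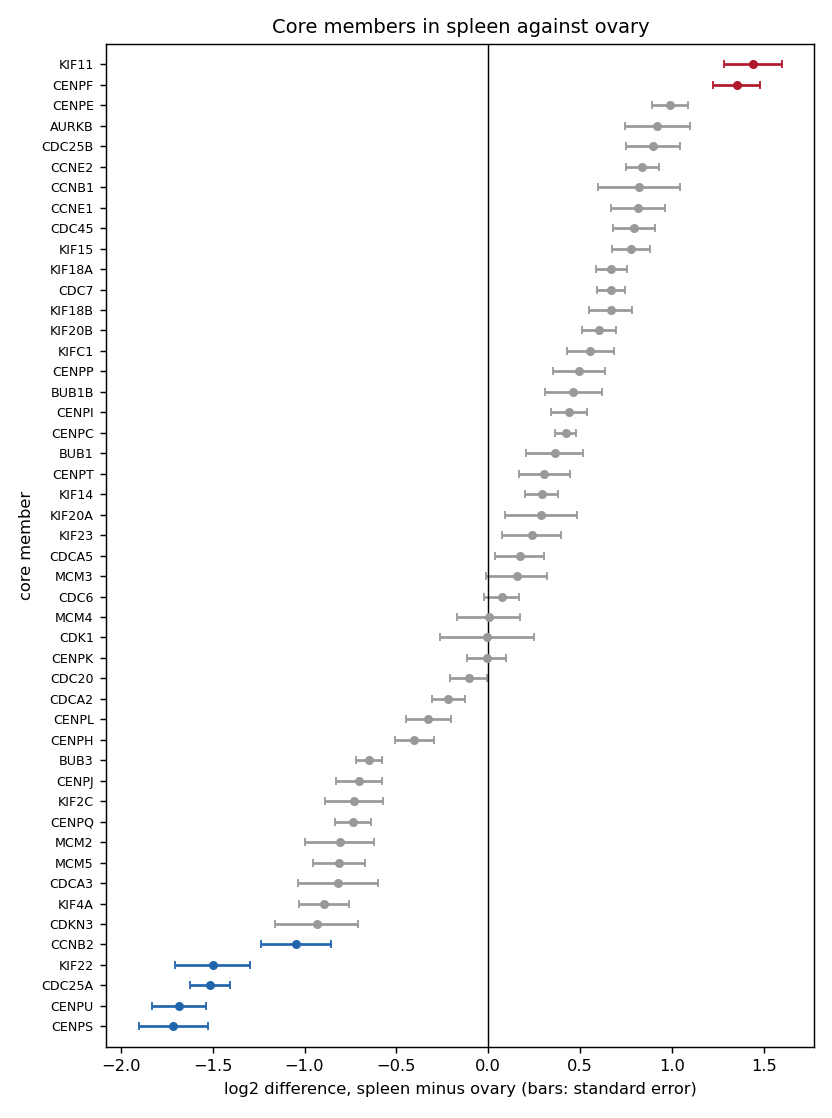
Log2 difference, spleen minus ovary, of each of the 48 core members, with the standard error as bar; red marks the 2 called higher in spleen, blue the 5 called lower. KIF11 (1.44) and CENPF (1.35) stand at the top, and CENPS (-1.71) and CENPU (-1.68) at the bottom.

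A further list of division genes that are no members, with TOP2A, PLK1 and UBE2C among them, had 57 of 81 symbols measured. Of these 30 were called higher in ovary (52.6%, beside 14.7% of all genes) and 15 in spleen (26.3%, beside 9.67%). In heart 4 were (7.02%, below the 8.72% of all genes), and none in liver, lung, kidney, muscle or adipose. Called lower were 4 in kidney (7.02%, beside 8.04%), 4 in adipose (7.02%, beside 6.08%), 3 in muscle (5.26%, beside 11.4%) and 1 in liver (1.75%, beside 11.0%). The median difference was 1.02 in ovary and 0.74 in spleen. In ovary SKA1, which couples kinetochores to microtubules, was higher by 4.24, and MELK, a mitotic kinase, by 3.26. In spleen TOP2A, the topoisomerase that untangles chromosomes, was higher by 1.98. In heart the 4 were GTSE1 (2.35), DNMT1 (1.41), RFC5 (1.13) and ANLN (1.10).

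Heart had a wide spread in division genes, 15.0-fold for CDK1 between its highest and lowest library, beside 15.5-fold in psoas major and 23.3-fold in longissimus dorsi. CDK1 in heart lay above the mean of the other classes by 0.67 (SE 0.20, adjusted p = 0.00180192), which is below the fold needed for a call. The 9 heart values were 4.71 in Bamei, 33.4 in Berkshire, 2.23 in Hampshire, 5.82 in Jinhua, 18.7 in Landrace, 23.7 in Large White, 13.1 in Meishan, 4.43 in Piétrain and 27.5 in Rongchang. They fall into libraries at 13.1 and above and libraries at 5.82 and below, with breeds of both origins in each. Red cell precursor genes summed to 112 in the Berkshire heart, 175 in Large White, 64.6 in Rongchang and 56.4 in Hampshire, and were highest in Landrace with 225. Relative depth was 1.13 in the Berkshire heart and 0.949 in that of Hampshire. The part of these in the CDK1 level was not tested.

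Skeletal muscle and adipose had the few core members called lower. In muscle 5 of 48 were (10.4%, where 11.4% of all genes were). They were MCM2 (-1.22), MCM4 (-1.09), CDK1 (-1.07, SE 0.14, adjusted p = 4.90788e-10), CCNB1 (-1.06) and CCNB2 (-1.05). The share is near the background. The count depended on the settings, with 21 of 48 on FPKM as deposited and 18 with a pseudocount of 0.1. Without Hampshire 3 core members were called lower in muscle, CDK1 and CCNB1 no longer among them, and CCNB2 lost its call without Jinhua. After quantile normalization 1 of the 5, MCM2, was still called. In adipose 4 of 48 were called lower (8.33%, where 6.08% of all genes were), with CDK1 at -1.36 (SE 0.20, adjusted p = 7.08606e-09), KIF22 at -1.14, CDKN3 at -1.06, not called after quantile normalization, and CCNB1 at -1.05, not called without Bamei. With a pseudocount of 0.1 the count in adipose was 17. In liver 1 core member, CDC25B, was called lower (-1.25, where 11.0% of all genes were), and in kidney 1, CDKN3 (-1.21, where 8.04% were). In heart, spleen, lung and ovary no core member was called lower, where 8.66, 13.2, 8.48 and 11.7% of all genes were.

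The breeds differed in division genes across tissues. A moderated F test over breeds, added after the data were seen, called 43 of 48 core members at an adjusted p below 0.05 (89.6%, where 55.4% of all genes were). A breed range over 1 on the log2 scale besides was found in 20 of 48 (41.7%, where 7.79% of all genes were). This test takes the tissues of a breed as its replicates, and they may come from 1 animal. Of the other members 47 of 80 were called and 1 had such a range, while of the 57 further division genes 52 were called and 21 had it. All 12 mitotic kinesins were called, 7 with a range over 1, and all 7 replication genes, 3 with it. CDK1 had a range of 1.77, with Large White highest and Piétrain lowest (adjusted p = 2.81099e-10). KIF20A, a kinesin of cell cleavage, had a range of 1.77 with Large White highest and Jinhua lowest, and CENPS 1.69 with Meishan highest and Hampshire lowest. CDC25A, with a range of 0.27, was not called (adjusted p = 0.364902). Without spleen and ovary 44 core members were called, 24 of them with a range over 1.

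In each library the mean core level was set against the mean of its tissue. Large White lay above it in 9 of 9 tissues, by 0.43 on average (log2), and Rongchang in 8 of 8, by 0.41. Berkshire lay above in 6 of 9 (0.18), Meishan in 8 of 9 (0.07) and Landrace in 6 of 9 (0.04). Hampshire, Jinhua and Piétrain lay above in 1 of 9 tissues each, with averages of -0.23, -0.27 and -0.32, Bamei in 3 of 9 (-0.16) and Tibetan wild boar in 0 of 3 (-0.28). The exception for Hampshire was liver, 0.30 above its mean, and that for Jinhua was ovary, 0.27 above. Large White held the highest value of 36 of 48 core members in lung, 34 in kidney and 27 in spleen, and Rongchang of 31 in longissimus dorsi and 23 in psoas major. Hampshire held the lowest value of 30 in kidney and 29 in heart, and Piétrain of 29 in adipose. How often these libraries were highest or lowest over all genes was not determined, so these counts have no background. The median range between breeds was 1.49 in longissimus dorsi, 1.42 in psoas major and 1.37 in heart, but 0.81 (0.806) in spleen and 0.80 (0.805) in ovary. The organs with the highest core levels had the smallest ranges between breeds.

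CDK1 levels of some organs also moved together from breed to breed. Over 28 pairs of tissue classes, Pearson's r ran from -0.09 to 0.91 and was positive in 27. Spearman's rho was also positive in 27, with spleen and lung at -0.02. In 6 pairs the exact permutation p, adjusted over the 28, was below 0.05, and in 7 by Spearman's rho. Heart and muscle had r = 0.912 (n = 9 breeds, two-sided exact permutation p = 0.001254, adjusted 0.02172) and rho = 0.883 (exact p = 0.003075, adjusted 0.02153). Without the 2 breeds farthest from the heart median, r was 0.847. In each pair the 2 breeds left out were chosen by the tissue named first alone. Heart and kidney had r = 0.897 (exact permutation p = 0.001551, adjusted 0.02172) and rho = 0.883, and r = 0.803 without 2 breeds. The other 4 joined muscle with adipose (0.868), kidney with adipose (0.854), kidney with muscle (0.849) and heart with adipose (0.835). Without the 2 farthest breeds the 6 pairs kept r from 0.716 to 0.923. The 7 pairs with ovary had r from -0.09 to 0.48 and rho from 0.12 (0.117) to 0.50, and none was called. No pair with spleen or lung was called either, and several lost their r without the 2 farthest breeds, such as spleen with adipose (r = 0.571, then -0.07), spleen with muscle (0.642, then 0.06) and spleen with ovary (0.292, then -0.63). Tissues of a breed may share an animal, and the scaling of each library is common to all its genes. Other genes were not correlated between organs, so the count of 6 pairs has no background.

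No member was called by breed origin. Over 8 tissues, Chinese minus Western breeds gave 0 of 128 members called by limma (adjusted p below 0.05), where 0.168% of all genes were called higher and 0.144% lower, and 5 members had an unadjusted p below 0.05 (CDK15, KIFC3, CDC42BPG, CDC42EP2 and CDC42EP3, smallest adjusted p = 0.333281). All 5 are outside the core. Within single tissues limma called no member in any of the 9, and 0 to 5 members per tissue (of 88 to 128 tested) had an unadjusted p below 0.05, a level reached by 4.72 to 8.98% of all genes. Of all genes 0.231% were called in heart, 0.222% in kidney, 0.164% in lung and 0.136% in liver. The share was 0.0928% in adipose, 0.0736% in ovary, 0.0435% in longissimus dorsi, 0.0261% in psoas major and 0.0% in spleen. The interaction of origin and tissue called 0 of 128, where 2.39% of all genes were called. At an unadjusted p below 0.05 it had 8 members (6.25%), beside 10.4% of all genes.

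The genes most like CDK1 over the 83 tissue libraries, by Pearson's r of log2 levels, were TTK (0.963), CCNB1 (0.959), UBE2C (0.959), NUF2 (0.949), CDCA3 (0.947), ASF1B, TCF19, RACGAP1, CDCA5 and KIF23 (0.935). Of 10454 symbols 79 had r over 0.8, a share of 0.756%. By role 11 of 12 mitotic kinesins exceeded it, 5 of 6 spindle checkpoint and cohesion genes, 4 of 7 replication genes, 4 of 9 cyclins and kinases, 2 of 13 centromere genes and none of 25 transport and other kinesins. The core members least like CDK1 were CCNE1 (0.156), the cyclin that starts S phase, CDC25A (0.182), CENPQ (0.311), CENPK (0.347), CENPP (0.370) and BUB3 (0.390). BUB3, which also serves outside mitosis, had tissue means from 22.6 to 47.3 scaled FPKM. Libraries share breed and tissue, so these r are a description.

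Members outside the core have mostly other roles than division, and many kinesins move cargo along microtubules in cells that do not divide. Of 80 tested, those called higher numbered 11 in kidney (13.8%, beside 10.6% of all genes), 10 in ovary (12.5 beside 14.7%), 7 in heart (8.75 beside 8.72%) and 5 in lung (6.25 beside 9.79%). There were 5 in muscle (6.25 beside 10.6%), 4 in liver (5 beside 12.7%), 3 in spleen (3.75 beside 9.67%) and 2 in adipose (2.5 beside 7.26%). Called lower were 6 in spleen (7.5 beside 13.2%), 5 in muscle (6.25 beside 11.4%), 5 in ovary (6.25 beside 11.7%) and 4 in liver (5 beside 11.0%). A further 2 were lower in lung (beside 8.48%) and 2 in adipose (6.08%), and 1 in heart (8.66%) and 1 in kidney (8.04%). Apart from the higher calls in kidney, these shares lay near or below those of all genes. Of the 4 genes of the anaphase promoting complex and of mitotic exit, 2 were called higher in kidney and none in spleen or ovary. In adipose 1 of these 4 was called lower. The members named next are single cases. KIF12, a kinesin found in kidney epithelium, averaged 24.2 ± 3.49 scaled FPKM in kidney (n = 9; 19.6 over 24.5 to 29.5) and 3.69 ± 0.948 in liver, a log2 difference from the other classes of 3.79, and was highest in kidney alone, where 2.76% of all genes were. CDK18, a little studied kinase, averaged 66.4 ± 11.9 in heart (51.9 over 62.1 to 87.0) and 32.1 ± 4.13 in kidney, and was highest in heart (2.82) with KIF26B (2.11), where 1.4% of genes were. No heart overlapped a kidney for CDK18, and no kidney a liver for KIF12.

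In muscle KIF1B, a motor of mitochondria and vesicles, averaged 31.9 ± 7.82 scaled FPKM in the psoas (n = 10) and 31.6 ± 8.64 in the longissimus (n = 10), against 9.35 ± 1.08 in heart, and was highest in muscle (2.41) with CDC37L1 (1.93), a relative of a chaperone partner, where 2.49% of genes were. In spleen CDCA7, a chromatin protein, averaged 8.74 ± 1.79 (5.49 over 8.71 to 12.3) and KIF21B, a kinesin of neurons and immune cells, 8.97 ± 1.79 (6.20 over 9.07 to 12.0). Both were highest there, by 2.16 and 2.11 over the mean of the other classes, where 2.97% of genes were. CDCA7 read 2.04 ± 0.780 in lung. In liver, lung and adipose no member was highest, where 5.09, 1.48 and 1.72% of genes were. CDKN2A, an inhibitor of G1 kinases and a mark of aged cells, was higher in ovary (3.68 ± 1.34 scaled FPKM, n = 9; log2 1.60) and in spleen (2.95 ± 0.787, n = 10; log2 1.39), and is listed at 0 in every heart. In ovary CDK5R1, an activator of CDK5, was higher by 1.82, KIF3A, a motor of cilia, by 1.80 and KIF24, a kinesin of the centriole, by 1.60. CCNA1, a cyclin A known from germ cells, was called higher in lung by 1.75 (adjusted p = 4.51767e-22), with 3.13 ± 0.744 scaled FPKM (n = 8; 2.18 over 3.04 to 4.42). It was also called in ovary, by 1.13, which lay 0.55 (0.548) below lung on the log2 scale (adjusted p = 0.000982185). The ovary call was lost without Meishan, whose ovary read 13.0 scaled FPKM, beside 0.900 to 2.32 in the others.

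Psoas major was compared with longissimus dorsi within breeds. Levels here were scaled within the 20 muscle libraries, so they are not on the scale of the tissue levels given above. Of 98 members tested, 16 were called higher (where 12.7% of all genes were) and 8 lower (15.1%). With no block for breed the counts were 5 and 1, and without Jinhua 5 were lower. Of 39 core members 3 were higher (7.69%) and 2 lower (5.13%), shares below those of all genes. CDK1 differed by -0.02 (SE 0.10, adjusted p = 0.888186). KIF5B, a conventional kinesin, had 25.0 ± 3.66 scaled FPKM in the psoas against 18.5 ± 2.15 in the longissimus (SD, n = 10 each), a log2 difference of 0.41, higher in 10 of 10 breeds (adjusted p = 0.000485997). CDK18 had 3.97 ± 2.34 in the psoas against 1.49 ± 0.702 in the longissimus, a difference of 0.89. Among core members CDC7 was higher by 0.27, and KIF22 (-0.36) and CDC25B (-0.31) were lower.

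The mixtures were compared with the mean of 9 tissues in the 8 breeds that have both. Levels were again scaled within the libraries of this comparison. Of 128 members 13 were called higher (where 17.5% of all genes were) and 71 lower (47.9%). The counts were 22 and 38 when the tissues were averaged as log2 values, and 7 and 108 after quantile normalization. No core member was higher and 27 were lower, with a core median of -0.18, beside -0.14 over all genes. CDK1 read 7.13 ± 3.2 scaled FPKM in mixtures and 8.47 ± 3.52 in the tissue mean (SD, n = 8). The log2 difference was -0.24 (SE 0.07, limma adjusted p = 0.0148145). It was higher in 1 of 8 breeds. The members called higher were outside the core, and the largest were kinesins and a kinase activator known from neurons. KIF5C read 14.6 ± 4.97 in mixtures and 0.331 ± 0.0966 in the tissue mean, an 11.2-fold difference on the scale of FPKM plus 1. KIF1A read 11.7 ± 4.0 in mixtures and 0.968 ± 0.175 in tissues (6.15-fold), and CDK5R1 8.68 ± 2.52 and 0.973 ± 0.101 (4.74-fold). In none of these did a mixture overlap a tissue mean. KIFC2 (2.51-fold) and KIF21B (1.83-fold) followed, and KIF1C was lower, by -0.86 on the log2 scale.

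**Figure D5:**
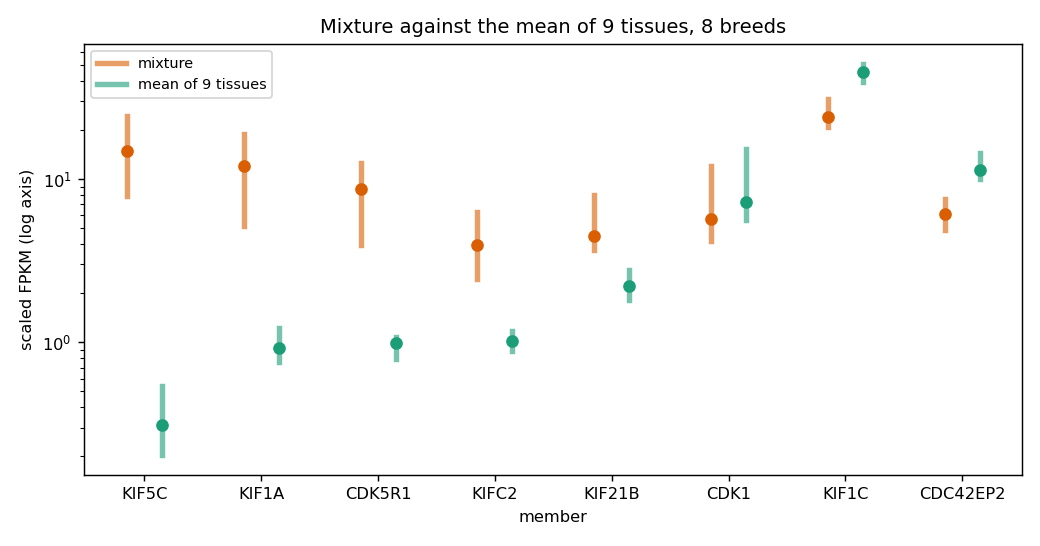
Scaled FPKM of 8 members in the mixtures and in the mean of 9 tissues of the same 8 breeds, on a log axis; bars run from the lowest to the highest breed and points are medians. KIF5C, KIF1A and CDK5R1 separate without overlap, and CDK1 overlaps.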

How the data were processed

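Per the submitters' processing notes, reads were handled with TopHat and Cufflinks 2.2.1 on Sscrofa10.2, and the authors deposited FPKM per gene ID. Annotation release, options and strandedness are not given in the sources used here, so overlapping or near-identical genes may share reads. Symbols came from a list of gene IDs, and no value column lacked a sample. FPKM were scaled by median ratios within each fit, and genes with at least 1 scaled FPKM in 3 libraries were kept. Then log2(scaled FPKM + 1) was tested with limma 3.58.1 (trend and robust), with Benjamini-Hochberg adjustment over all genes and breed as a block. This was run in R 4.3.3 with statmod 1.5.0 and data.table (version 1.17.8). The pseudocount understates changes of low genes. Tables were read with pandas 2.3.3 and numpy 2.4.6 in Python 3.11.15, permutations run with scipy 1.17.1 and figures drawn with matplotlib 3.10.9. The code was tested on simulated data.

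Members, roles and lists were chosen with earlier results of these data known, and the role of MCM3AP was set after its row was seen. Breed origin comes from general knowledge. The genes named are CDK1, the called members with the largest differences (up to 6 per direction and comparison), the 10 genes most and the 6 core members least like CDK1, and members abundant in their role, and others are named for contrast after their values were seen. Muscles were paired by breed, since same-breed libraries deviated together in all 10 pairs (r from 0.323 to 0.534). Alternatives were other scalings, a pseudocount of 0.1, other filters, no block, other fold thresholds, plain moderation, a mean of log2 values for mixtures and leaving out each breed. Symbols of the family without a row, mixtures' makeup and sequences were not analysed here.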

Additional observations from a re-analysis of the deposited data

Results flagged for a closer look

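Within tissues of 8 to 10 breeds, 15 of 149 groups held 1 library far from the rest by a gap test. A group was CDK1 or the mean core level in 1 tissue, or another member in a tissue where it was called or highest. Chance passes this test in about 1 of 20 groups if values are normally distributed, which was not checked. Members other than CDK1 were chosen on these same values, so that rate is no standard for the 15. The ovary of Jinhua was the highest for CENPS (39.8 scaled FPKM, others 20.6 to 27.5), CDKN3 (15.5, others 5.54 to 10.4), CDK3 (7.33, others 1.59 to 3.97), CENPL (6.46, others 1.49 to 3.66) and KIF5C (3.17, others 0.894 to 1.88). The ovary of Meishan was the highest for CCNA1 (13.0, others 0.900 to 2.32) and the lowest for MCM5 (7.17, others 13.4 to 19.7). Hampshire was the highest in kidney for KIF3B (16.6, others 6.79 to 11.1) and CDC14A (11.3, others 5.59 to 7.42), in adipose for CDC42EP2 (30.2, others 11.4 to 20.7) and in spleen for KIF12 (0.830, others 0.0216 to 0.238). In longissimus dorsi, CCNB2 was highest in Rongchang (5.63, others 0.237 to 2.98) and KIF1B in Piétrain (49.7, others 21.1 to 36.4). KIF1C in psoas major was highest in Tibetan wild boar (164, others 72.8 to 112). KIF12 in heart was highest in Large White (0.210, others 0 to 0.0510).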

How the results depend on the processing

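On FPKM as deposited, core members called higher numbered 33 in spleen, 29 in ovary and 2 in the other 6 classes, and those called lower 21 in muscle and 11 in the 6 classes other than muscle and adipose; other members gave 119 calls, 16 members were highest in ovary, 4 in other classes, and 3 lowest in one. Quantile normalization gave 1 core member lower in muscle, 4 lower in the other 6 classes, and 7 members higher and 108 lower in mixtures. A pseudocount of 0.1 gave 35 in spleen, 3 higher elsewhere, 18 lower in muscle, 17 in adipose and 10 elsewhere, 160 other-member calls, 11 highest in ovary, 11 in other classes, 3 lowest, and 34 core members with a breed range over 1. A log2 threshold of 2 left 0 in spleen, 7 in ovary, 0 lower in muscle, adipose or elsewhere, 7 other-member calls, 0 highest in ovary and 1 elsewhere. A threshold of 0.5 gave 40, 27 and 11 higher, 22, 26 and 48 lower, 244 other-member calls, 18 highest in ovary, 33 elsewhere and 9 lowest. A filter of 5 FPKM left 5 higher and 5 lower in psoas major against longissimus dorsi, and with no replicate block 5 and 1 were called. The mean of log2 values as standard for mixtures gave 22 higher and 38 lower.

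Without replicate breeds in turn, core calls ran from 18 to 23 in spleen and 16 to 18 in ovary, 0 to 1 higher elsewhere (1 without Hampshire), 3 to 7 lower in muscle (3 without Hampshire), 3 to 4 in adipose and 2 elsewhere; other-member calls ran from 72 to 76, members highest in ovary from 6 to 7, in other classes from 5 to 8, and lowest from 0 to 1 (1 without Rongchang). Muscle calls ran from 11 to 16 higher and 5 to 12 lower (5 without Jinhua), origin calls from 0 to 0 over 8 tissues and 0 to 1 within tissues (1 without Meishan), mixture calls from 12 to 13 and 61 to 73, and breed calls from 41 to 45, with 16 to 21 over a range of 1. Of 2354 recomputed gene values 2179 kept side and direction, 173 lost the call, 2 gained one and 0 reversed; the causes were not tested. Alternatives for the breed test were added after the data were seen. The CDK1 difference in heart stayed between 0.30 and 0.86 (0.303 to 0.856), and that in muscle between -1.69 and -0.95. Depth is unknown, so the error of low FPKM cannot be given.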
